A study of Homo sapiens with 12 samples.

Results

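The genes described here serve protein folding in the endoplasmic reticulum (ER) and the unfolded protein response, and their RNA was measured in OCI-AML2, a human acute myeloid leukaemia cell line. They were chosen by symbol from a list of 34 genes: 5 stress sensors and transcription factors, 11 chaperones and secreted ER proteins, 5 disulfide enzymes, 9 genes of ER-associated degradation, and 4 of protein translocation and export. All 34 were rows of the count table of 55765 genes, and all 34 were among the 11474 genes that passed the filter on low counts. The list is one of gene functions, and it was drawn up with earlier results of these data known.

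In this line the study placed MEF2C, a transcription factor, under doxycycline control, as the wild-type protein (WT) or as the mutant S222A, in which a serine is replaced by alanine. There were 4 groups with 3 libraries each: the WT line, uninduced or induced, and the S222A line, uninduced or induced. Induction meant 600 ng doxycycline in a culture of 3 ml for 48 h, and the uninduced cells received vehicle per the treatment protocol, while their treatment label reads none. All 4 groups are single-cell clones that carry a construct, and how many clones stand behind each construct is not stated. Cells without a construct that received doxycycline were not analysed here, so an effect of doxycycline and one of MEF2C cannot be told apart. Nothing in the labels says whether replicates came from separate cultures. The p-values thus rest on the spread between libraries, and that spread may be technical.

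The ER folds secreted and membrane proteins with the help of chaperones such as HSPA5 (BiP), the lectins calnexin and calreticulin, and enzymes that form disulfide bonds. When unfolded proteins accumulate, 3 sensors in the ER membrane respond: ATF6 is cut to release a transcription factor, ERN1 (IRE1) splices the mRNA of XBP1, and EIF2AK3 (PERK) phosphorylates eIF2alpha and slows translation. The released factors raise the transcription of chaperones, of degradation genes and of XBP1 itself, while eIF2alpha phosphorylation favours translation of ATF4, whose targets include TRIB3 and, in part, PPP1R15A. Gene counts hold the RNA level of these genes and neither XBP1 splicing, ATF6 cleavage nor kinase activity.

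Library totals ranged from 875710 to 13134791 counts. The deepest library of each group held 5412391 to 13134791 counts and the other 8 held 875710 to 4489036. Levels are given as counts per 1e6 counts (CPM) with TMM factors. A gene is called when its adjusted p is under 0.05 in edgeR's quasi-likelihood test with Benjamini-Hochberg adjustment over the 11474 genes. MEF2C itself stood at 645 to 817 CPM in WT uninduced, 674 to 844 in WT induced, 605 to 802 in S222A uninduced and 786 to 956 in S222A induced libraries. It was not called on induction of WT (log2 fold change 0.08 ± 0.16 SE, adjusted p = 1.00) or of S222A (0.34 ± 0.16, adjusted p = 0.285), so these counts do not show the induction that the labels state. Counts per symbol do not separate reads of the construct from those of the cell's own gene. Of 8 myeloid leukaemia markers, 7 were detected, with summed levels of 714 to 900 CPM, and CEBPA was at 0 in all 12 libraries. Markers of plasma cells, which are rich in these ER genes, summed to 1.10 to 8.97 CPM, and the erythroid HBA1, HBB and ALAS2 were at 0.

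Per kilobase of exon, the most abundant genes of the 34 were chaperones. In WT uninduced cells the mean level was 180.0 CPM per kb for HSP90B1 (GRP94, the ER form of HSP90), 176 for SDF2L1, a component of the HSPA5 chaperone complex, and 148 for calreticulin (CALR). SEC61B, a small subunit of the translocation channel, followed with 140.0 CPM per kb, and HSPA5, the HSP70 of the ER, with 114. The sensors stood far lower, at 10.8 CPM per kb for ATF6, 3.74 for EIF2AK3 and 2.00 for ERN1. The lowest 2 were SYVN1 (HRD1), the ubiquitin ligase of ER-associated degradation, at 1.68 CPM per kb, and DERL3, a derlin of the same machinery, at 1.19. The lengths come from GENCODE 29, which may differ from the annotation the authors counted on.

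Summed over genes, the chaperones stood highest in the S222A line before induction. The 11 chaperones together made up 3703, 3519 and 3754 CPM in the S222A uninduced libraries. Their sum was 2905, 3188 and 2864 CPM in WT uninduced, 3137, 3016 and 2874 in WT induced, and 2635, 2774 and 2771 in S222A induced libraries. The 3 S222A uninduced libraries thus held the 3 highest sums of all 12, and the 3 S222A induced libraries the 3 lowest. The 5 disulfide enzymes showed the same top group, with 1415, 1338 and 1575 CPM in S222A uninduced libraries and no more than 1145 in any other library. For the sensors and factors, the degradation genes and the 4 translocation and export genes, the sums of the S222A uninduced and induced groups overlapped. HSP90B1, CANX, HSPA5 and CALR account for most of the chaperone sum, so it describes these few genes more than the others. Gene by gene, 6 of the 11 chaperones stood higher and 5 lower in S222A than in WT induced cells, with a median log2 difference of 0.04. The heat map of levels by library shows the same block of S222A uninduced libraries for the chaperones and disulfide enzymes.

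**Figure D1:**
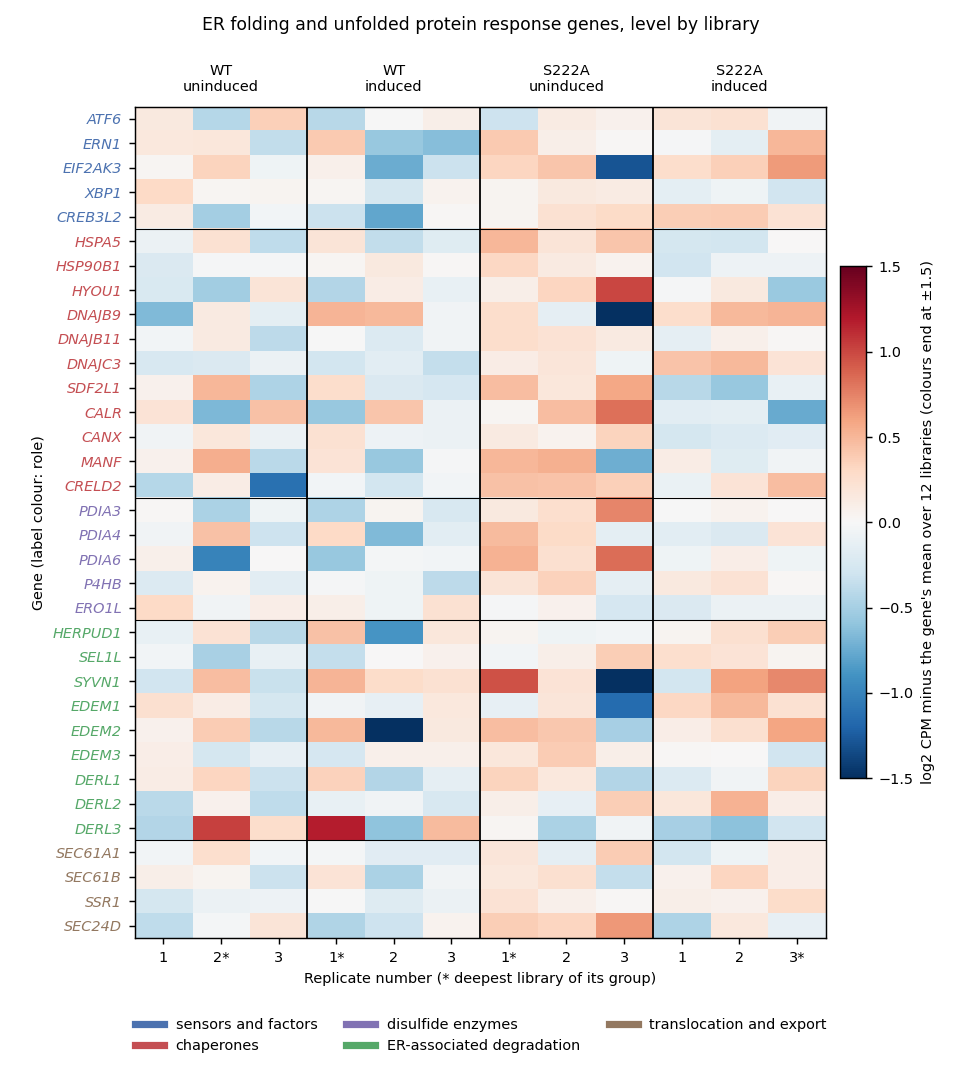
Level of each of the 34 genes (rows, coloured by role) in each of the 12 libraries (columns, replicate numbers within the 4 groups), as log2 CPM minus the gene's mean over the libraries. Most chaperone and disulfide enzyme rows are red in the 3 S222A uninduced columns, and S222A uninduced replicate 3 also holds dark blue cells for DNAJB9, SYVN1 and EDEM1.

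Depth and single libraries moved some of these genes. The deepest library of its group was lower than both others in all 4 groups for 4 of the 34 genes (ATF6, HYOU1, CALR and SEL1L) and higher for 9, against 15.4% and 17.4% of all genes tested. The gap between the deepest and the other libraries ran from -0.74 log2 for CALR to 0.92 for SYVN1. S222A uninduced replicate 3 was the second shallowest library. In it DNAJB9, a J protein that assists HSPA5, had 3 counts and SYVN1 had 1 count, and EIF2AK3 stood at 7.67 CPM against 23.5 and 25.04 in the other S222A uninduced libraries. The same library held the highest level of all 12 for 9 of the 34 genes (CALR, CANX, HYOU1, PDIA3, PDIA6, SDF2L1, SEC24D, SEC61A1 and SEL1L), beside 15.3% of all genes. It held the lowest for 7 (DERL1, DNAJB9, EDEM1, EIF2AK3, ERO1L, MANF and SYVN1), beside 18.5%. Results are therefore given also with a term for depth and without these libraries, alternatives chosen after seeing the data. The part that depth played in the results was not tested beyond these fits.

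The control regions of the factor targets can be set beside these levels. RefSeq promoter sequences (GRCh38.p14, while the counts were made on hg19; the 250 bases before the gene's start) matched 30 of the 34 genes, all but PDIA3, DERL1, DERL3 and SEC24D. The ER stress element, to which ATF6 and the CCAAT-binding factor NF-Y are known to bind, joins CCAAT and CCACG over a gap of 9 bases. It was found on either strand in 6 of the 30 promoters (20%), against 22 of 27305 promoters of all genes (0.0806%). The list was drawn from genes of the unfolded protein response, so the gap between these shares tests nothing in these data. These 6 sequences are shown because their genes include the factor XBP1 and 5 of the chaperones followed below. They lie at chr22:28800570-28800819 (minus strand), chr9:125241344-125241593 (minus strand), chr12:103930160-103930409 (plus strand), chr19:12938359-12938608 (plus strand), chr5:179698679-179698928 (plus strand) and chr22:49918384-49918633 (plus strand). Each is written 5′ to 3′ on the gene's strand and ends 1 base before the start, and capitals mark the element, which reads CGTGG first and ATTGG last where it lies on the opposite strand.
XBP1: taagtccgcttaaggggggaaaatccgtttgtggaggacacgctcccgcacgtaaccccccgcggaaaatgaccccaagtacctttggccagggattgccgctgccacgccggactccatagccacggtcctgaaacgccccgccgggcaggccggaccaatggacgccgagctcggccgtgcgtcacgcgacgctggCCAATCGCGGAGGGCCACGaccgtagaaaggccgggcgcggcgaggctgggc
HSPA5: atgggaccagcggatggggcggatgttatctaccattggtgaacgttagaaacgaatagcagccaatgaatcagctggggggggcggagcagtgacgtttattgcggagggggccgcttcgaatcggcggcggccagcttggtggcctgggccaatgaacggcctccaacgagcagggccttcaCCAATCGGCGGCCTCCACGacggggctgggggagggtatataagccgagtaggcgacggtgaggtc
HSP90B1: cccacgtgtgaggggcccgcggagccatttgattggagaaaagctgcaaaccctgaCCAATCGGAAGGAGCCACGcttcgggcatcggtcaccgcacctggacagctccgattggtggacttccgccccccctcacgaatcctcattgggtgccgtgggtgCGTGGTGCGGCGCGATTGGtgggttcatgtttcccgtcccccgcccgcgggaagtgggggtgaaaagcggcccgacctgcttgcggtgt
CALR: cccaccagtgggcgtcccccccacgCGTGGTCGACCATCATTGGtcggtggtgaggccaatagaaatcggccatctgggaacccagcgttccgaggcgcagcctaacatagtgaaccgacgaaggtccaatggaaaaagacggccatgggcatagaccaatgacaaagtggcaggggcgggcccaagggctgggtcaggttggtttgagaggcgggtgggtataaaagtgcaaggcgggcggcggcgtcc
CANX: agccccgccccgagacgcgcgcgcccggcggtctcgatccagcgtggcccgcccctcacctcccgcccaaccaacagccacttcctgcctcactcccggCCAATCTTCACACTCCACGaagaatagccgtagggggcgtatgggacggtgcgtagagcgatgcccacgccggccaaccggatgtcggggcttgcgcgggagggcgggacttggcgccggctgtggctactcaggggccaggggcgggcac
CRELD2: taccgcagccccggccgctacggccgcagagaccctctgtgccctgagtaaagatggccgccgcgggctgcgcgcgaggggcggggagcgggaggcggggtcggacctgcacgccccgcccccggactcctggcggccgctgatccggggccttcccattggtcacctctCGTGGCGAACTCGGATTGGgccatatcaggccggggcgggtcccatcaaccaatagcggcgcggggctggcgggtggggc
The element began 52 bases before the start in XBP1, 66 in HSPA5, 225 in CALR, 151 in CANX and 80 in CRELD2. HSP90B1, alone among the 30, had 2 copies, beginning 194 and 89 bases before the start and on opposite strands. The single parts were common, and each element is counted among them too. CCAAT stood in 24 of the 30 promoters (80%, beside 33% of all promoters). CCACG stood in 19 (63.3%, beside 33.3% of all). TGACGTG, the letters of an XBP1 and ATF6 type element, were found in 1 promoter, that of HYOU1 (3.33%, beside 1.71% of all). These are letter matches within 250 bases and show no binding.

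Induction of WT MEF2C left none of the 34 genes called, against 1 of all genes (0.00872%). No member reached an unadjusted p under 0.05 either, where 139 of the 11474 genes tested did so as higher and 56 as lower. DESeq2 also called 0 of the 34, and 0.00636% of all genes, and a fit with a term for depth called 0 and 0.0523%. The median log2 fold change of the 34 was -0.03, beside 0.01 over all genes, and the fold changes ran from -0.34 for EIF2AK3 to 0.47 for DNAJB9. HSPA5 stood at 437, 545 and 356 CPM without and 530.2, 359 and 408 CPM with induction, and the groups overlapped (log2 fold change -0.04, 95% interval -0.46 to 0.37). XBP1, the factor whose RNA ERN1 splices, was at 186, 154 and 156 CPM without and 154, 126 and 156 CPM with induction (-0.18, interval -0.49 to 0.14). The 3 libraries of each group did not overlap for 1 gene, HSP90B1, at 772, 884 and 881 CPM without and 910.1, 991 and 906 CPM with induction (0.15 ± 0.14 SE, adjusted p = 1.00), against 2.81% of all genes higher in this sense. In the lower direction there were 0 such members, against 2.98% of all genes. The intervals show how large a change these data would leave undetected: for SYVN1 that of WT induction ran from -0.74 to 1.37.

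Induction of S222A MEF2C also left none of the 34 genes called, whereas 511 of all genes were (4.45%). The chaperones nevertheless stood mostly lower. Of the 11 chaperones, 9 had a negative log2 fold change, with a median of -0.31, as had all 5 disulfide enzymes, with a median of -0.27, beside 0.01 over all genes and 49.2% negative. Leaving out each of the 6 S222A libraries in turn left 9 of the 11 chaperones negative every time, and 3 to 5 of the 5 disulfide enzymes. At an unadjusted p under 0.05, 8 of the 34 were lower and 1 was higher, where 9.26% and 9.85% of all genes were. Groups of 3 libraries did not overlap for 11 lower and 3 higher members, against 13% and 14.4% of all genes. The smallest adjusted p of the 34 was 0.0896, for SDF2L1, and DESeq2 called 0 as well, with 5.79% of all genes. In bulk libraries a smaller share of cells with a transcript and less of it per cell cannot be told apart.

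The sensors and factors showed no common direction on S222A induction. ATF6 was at 66.2, 89.5 and 85.4 CPM without and 93.5, 96.1 and 79.2 CPM with induction (log2 fold change 0.17 ± 0.22 SE, adjusted p = 0.762). ERN1 was at 28.5, 23.0 and 21.9 CPM without and 21.5, 19.6 and 30.7 CPM with induction (-0.04 ± 0.29, adjusted p = 0.968). Both sensors overlapped between the groups. EIF2AK3 was at 23.5, 25.04 and 7.67 CPM without and 22.5, 24.1 and 29.3 CPM with induction (0.33 ± 0.31, adjusted p = 0.632). Without S222A uninduced replicate 3, the low library, its fold change was 0.07. XBP1 was at 155, 167 and 164 CPM without and 137, 144 and 124 CPM with induction, 3 lower values that did not overlap the uninduced ones (-0.27 ± 0.15, adjusted p = 0.359). CREB3L2, an ER-membrane transcription factor of the ATF6 type, had a log2 fold change of 0.15 (adjusted p = 0.785).

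Among the chaperones, HSPA5 was at 657, 531 and 620 CPM in S222A uninduced and 385, 383 and 466 CPM in S222A induced libraries. The 2 groups did not overlap, and the fold change was -0.55 ± 0.19 SE on the log2 scale (adjusted p = 0.133). It was -0.50 between the deepest libraries and -0.58 among the others. The remaining chaperones named here were chosen after their values were seen, because a fit with a depth term called them. SDF2L1 was at 251, 204 and 272 CPM without and 136, 122 and 168 CPM with induction, with no overlap (-0.76 ± 0.24, adjusted p = 0.0896). CALR, a lectin chaperone and calcium store, was at 390.0, 529 and 679 CPM without and 344, 346 and 226 CPM with induction, again with no overlap (-0.80 ± 0.32, adjusted p = 0.189). The deepest library was the lowest of its group for CALR on both sides, and the fold change was -0.78 between the deepest libraries and -0.80 among the others. CANX (calnexin), the membrane-bound lectin chaperone, was at 644, 612 and 745 CPM without and 491, 513 and 525 CPM with induction, also without overlap (-0.39 ± 0.15, adjusted p = 0.171).

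HYOU1, which exchanges nucleotides on HSPA5, was at 43.0, 50.5 and 81.0 CPM without and 39.8, 44.8 and 27.5 CPM with induction. Its groups overlapped, and the highest value came from S222A uninduced replicate 3 (-0.60 ± 0.28, adjusted p = 0.258, and -0.33 without that library). HSP90B1 was at 1108, 982 and 928 CPM without and 732, 852 and 852 CPM with induction, with no overlap (-0.31 ± 0.14, adjusted p = 0.252). DNAJB11, an HSPA5 co-chaperone, also stood lower without overlap, at -0.22 (adjusted p = 0.506). MANF and CRELD2, small secreted proteins of the ER stress response, had fold changes of -0.26 and -0.19 with overlapping groups, and each came to -0.07 without 1 library, S222A uninduced replicate 2 for MANF and S222A induced replicate 1 for CRELD2. The 2 chaperones with positive fold changes were the J proteins DNAJB9 (0.56, adjusted p = 0.401) and DNAJC3 (0.29, adjusted p = 0.298). That of DNAJB9 ran from 0.32 without S222A uninduced replicate 3 to 0.97 without S222A uninduced replicate 1. DNAJC3 (p58IPK), which also restrains EIF2AK3, was at 86.5, 91.1 and 76.7 CPM without and 108, 112 and 92.2 CPM with induction, and these did not overlap.

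All 5 disulfide enzymes had negative fold changes on S222A induction, from -0.56 for PDIA6 to -0.02 for P4HB. PDIA6, an isomerase that works with HSPA5, was at 495, 407 and 618 CPM without and 329, 369 and 329 CPM with induction, with no overlap (-0.56 ± 0.26 SE, adjusted p = 0.258, and -0.40 without S222A uninduced replicate 3). PDIA3 (ERp57), the isomerase that partners calnexin and calreticulin, was at 376, 404 and 565 CPM without and 339, 353 and 340.4 CPM with induction (-0.38, adjusted p = 0.322, and -0.18 without S222A uninduced replicate 3). PDIA3 has a near-identical processed pseudogene, PDIA3P1, and its counts are uncertain to the extent that reads were split between them. PDIA4 stood at -0.27 (-0.12 without S222A uninduced replicate 1), and ERO1L, the oxidase that recharges the isomerases, at -0.07.

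The degradation genes showed no stable direction, with 6 of 9 fold changes positive (66.7%, beside 50.8% of all genes) and a median of 0.09. Without S222A uninduced replicate 3 only 4 of the 9 were positive, with a median of -0.10, and without S222A induced replicate 3 likewise 4, with a median of -0.08. EDEM1, a lectin that marks misfolded glycoproteins for degradation, was at 38.0, 46.8 and 18.6 CPM without and 51.3, 57.8 and 48.4 CPM with induction. The groups did not overlap, and the fold change was 0.54 ± 0.25 SE (adjusted p = 0.253), or 0.31 without S222A uninduced replicate 3. HERPUD1, a scaffold of the degradation complex, was higher without overlap at 0.24 (adjusted p = 0.694). EDEM3 was lower without overlap at -0.30 (adjusted p = 0.348). SEL1L, SYVN1, EDEM2 and the 3 derlins had adjusted p-values from 0.729 to 0.981 and overlapping groups. Of the translocation and export genes, SEC24D, a cargo adaptor of COPII vesicles, was at 43.2, 41.9 and 52.6 CPM without and 24.2, 37.2 and 30.8 CPM with induction, with no overlap (-0.55 ± 0.22, adjusted p = 0.177). The translocation genes SEC61A1, SEC61B and SSR1 lay between -0.22 and 0.12.

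**Figure D2:**
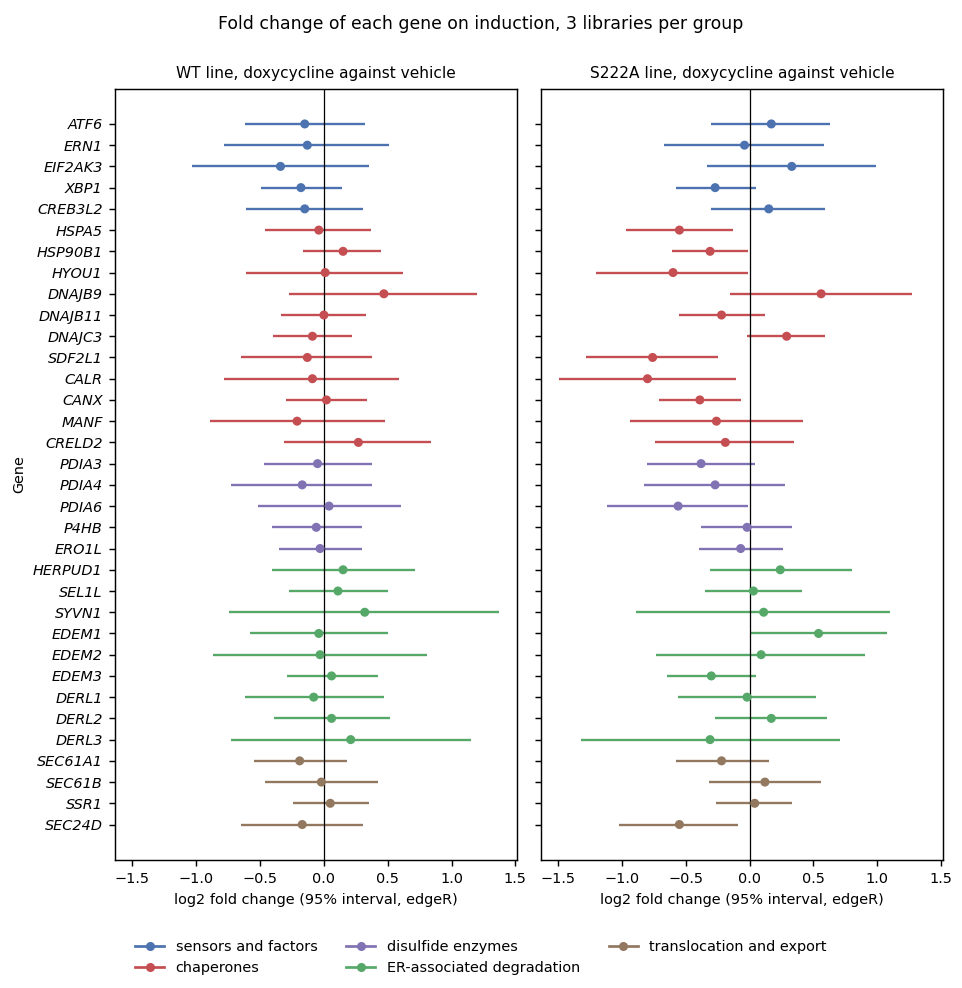
Log2 fold change of each of the 34 genes (rows, coloured by role) on induction in the WT line (left) and in the S222A line (right), as points with the 95% interval of edgeR's test over 3 libraries per group. In the WT panel every interval spans 0, and in the S222A panel 9 intervals do not, 8 below 0 and EDEM1 above.

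With a term for the deepest library of each group added to the fit, 7 of the 34 genes were called lower on S222A induction and 0 higher, against 9.12% and 8.77% of all genes (17.9% in either direction). These were CALR (-0.80 ± 0.14 SE, adjusted p = 3.98e-04), SDF2L1 (-0.77 ± 0.15, adjusted p = 0.00120), HSPA5 (-0.55 ± 0.12, adjusted p = 0.00272), HYOU1 (-0.59, adjusted p = 0.0156), CANX (-0.39, adjusted p = 0.0245), SEC24D (-0.53, adjusted p = 0.0471) and PDIA6 (-0.56, adjusted p = 0.0491). Called were thus 5 of the 11 chaperones, 1 of the 5 disulfide enzymes and 1 of the 4 translocation and export genes, and 0 of the sensors, factors and degradation genes. The fold changes matched those without the term to within 0.02, and the standard errors were smaller. With no filter on low counts CALR and SDF2L1 were called (1.81% of all genes), and with only the 6 S222A libraries in the fit SDF2L1 (4.43%). When the deepest libraries were left out, CALR, HSPA5 and SDF2L1 were called lower (5.03% of all genes). With S222A uninduced replicate 3 also left out, 0 were called (3.79%), and the fold changes were -0.62 for CALR, -0.47 for HSPA5 and -0.66 for SDF2L1. The other 4 genes called with the depth term then stood at -0.25 (HYOU1), -0.29 (CANX), -0.43 (SEC24D) and -0.23 (PDIA6). Over 16 alternatives the adjusted p of CALR ran from 3.98e-04 to 0.415, that of HSPA5 from 0.00272 to 0.368 and that of SDF2L1 from 0.00120 to 0.307.

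**Figure D3:**
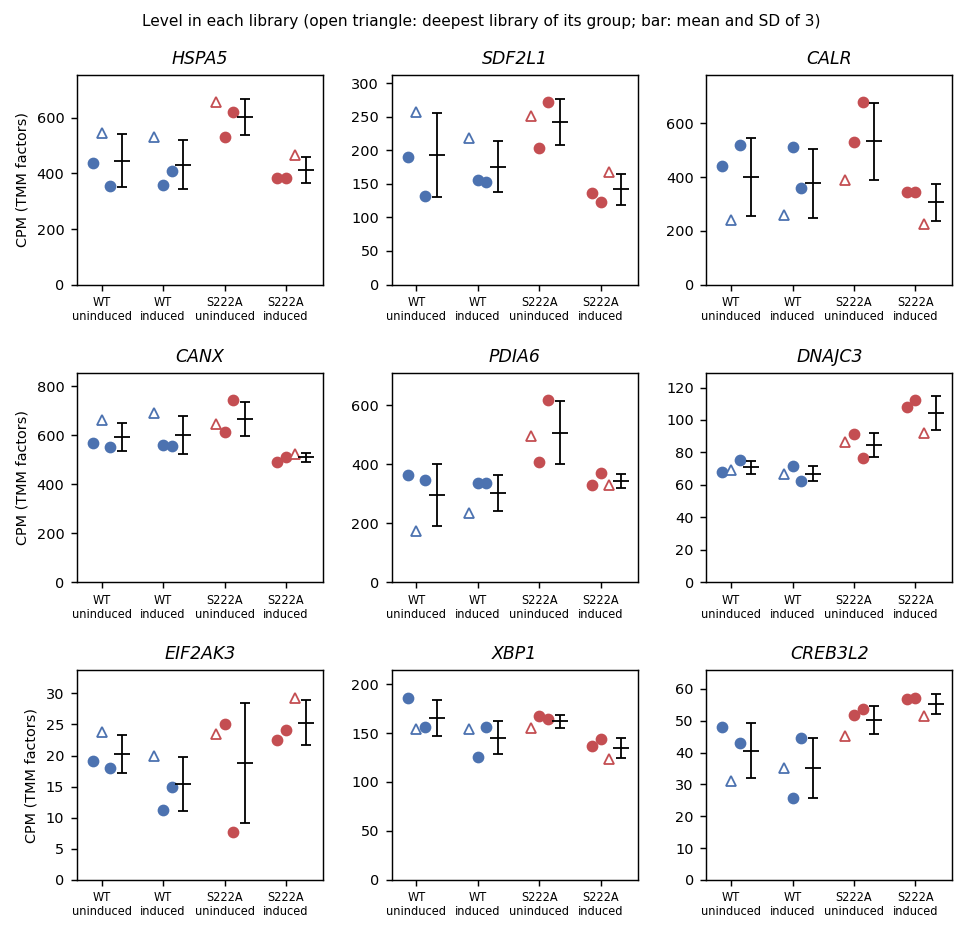
Level in CPM (vertical axis, from 0) of 9 of the genes in each of the 12 libraries, by group, with WT in blue and S222A in red, open triangles for the deepest library of each group, and a bar for the mean and SD of 3 libraries. HSPA5, SDF2L1, CALR, CANX and PDIA6 have their highest group mean in S222A uninduced cells, and DNAJC3 in S222A induced cells.

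The difference between the inductions (S222A minus WT) was not called for any of the 34 genes, against 0.0784% of all genes. With the depth term it was likewise called for 0 of the 34, against 1.28%. Over the 11474 genes tested, 417 had a positive and 349 a negative difference at an unadjusted p under 0.05 by edgeR's test. Among the 34 there was 1 such gene. It was HSP90B1, which stood higher with WT and lower with S222A induction (difference -0.46 ± 0.20 SE, adjusted p = 0.726). DESeq2 called 0 of the 34 and 0.274% of all genes. The chaperones had a median difference of -0.46, with 9 of 11 negative, beside -0.01 over all genes. HSPA5 differed by -0.51 (95% interval -1.10 to 0.08), SDF2L1 by -0.63 (-1.36 to 0.10) and CALR by -0.71 (-1.68 to 0.26). The 5 sensors and factors had a median difference of 0.30, with 4 positive, and EIF2AK3 among them differed by 0.67 (-0.28 to 1.63). On S222A induction EIF2AK3 stood at 0.33, or 0.07 without S222A uninduced replicate 3. On WT induction it stood at -0.34. All 5 sensors and factors were negative on WT induction, with a median of -0.15, beside 48.8% of all genes. The interval of EIF2AK3 and those of the 3 chaperones all include 0 and are wide, since each rests on 4 groups of 3 libraries.

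Between the induced lines 1 of the 34 genes was called, DNAJC3, higher in S222A, against 6.34% of all genes called and 3.73% called higher. DNAJC3 stood at 66.5, 71.7 and 62.6 CPM in WT induced and 108, 112 and 92.2 CPM in S222A induced libraries. Every S222A library lay above every WT library, a difference of 0.64 ± 0.14 SE on the log2 scale or 1.56-fold (95% interval 1.26 to 1.93, adjusted p = 0.0204). The difference was 0.47 between the deepest libraries and 0.71 among the other 8. Before induction DNAJC3 was at 68.1, 69.2 and 75.6 CPM in WT and 86.5, 91.1 and 76.7 CPM in S222A cells, higher in all 3 libraries by 0.26 ± 0.14 (adjusted p = 0.754). The call held under 9 of 16 alternatives, DESeq2 among them (7.16% of all genes called), and its adjusted p ran from 0.00102 with the depth term to 0.103 without WT induced replicate 3. It was also lost without WT induced replicate 1 (0.0524), S222A induced replicate 1 (0.0812) or S222A induced replicate 2 (0.0944), with only the 6 libraries compared (0.0585), with no filter (0.0929) and with the replicate number as a block (0.0560). Under these last 3 settings 4.26%, 2.37% and 3.05% of all genes were called.

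No other member passed the test between the induced lines, although 25 of the 34 fold changes were positive, with a median of 0.11 beside 0.00 over all genes. Groups did not overlap for 7 higher and 3 lower members, against 15.2% and 12.9% of all genes. EIF2AK3 was at 19.9, 11.2 and 15 CPM in WT induced and 22.5, 24.1 and 29.3 CPM in S222A induced libraries, without overlap (0.66 ± 0.31 SE, adjusted p = 0.247). CREB3L2 was at 35.2, 25.8 and 44.7 CPM in WT induced and 56.8, 57.3 and 51.5 CPM in S222A induced libraries, also without overlap (0.60 ± 0.21, adjusted p = 0.109). With the depth term CREB3L2 (0.55, adjusted p = 0.0151) and EIF2AK3 (0.65, adjusted p = 0.0375) were called higher beside DNAJC3, and DERL3 lower (-1.17, adjusted p = 0.0272), against 21.6% of all genes. DERL3 rested on few reads, with 53, 2 and 18 counts in WT induced libraries, and overlapped between the lines. ATF6 (0.23, adjusted p = 0.615), ERN1 (0.28, adjusted p = 0.653), XBP1 (-0.12, adjusted p = 0.725) and HSPA5 (-0.07, adjusted p = 0.888) were not called. For HSPA5 the 95% interval of this difference ran from -0.49 to 0.34.

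Before induction the S222A line had 0 of the 34 genes called against the WT line, with 0.392% of all genes called. Even so, 28 of the 34 fold changes were positive (82.4%, beside 50.3% of all genes), with a median of 0.25 beside 0.00. Without WT uninduced replicate 3 these were 23 of 34 and a median of 0.10. All 11 chaperones and all 4 translocation and export genes were on the positive side, and 10 and 3 of them without that library. Without S222A uninduced replicate 1 they were 9 and 4, with 25 of the 34 genes positive and a median of 0.16. At an unadjusted p under 0.05, 6 members were higher and 0 lower, where 4.17% and 3.30% of all genes were, and DESeq2 called 0 of the 34 and 0.420% of all genes. Groups did not overlap for 8 higher and 0 lower members, against 6.24% and 6.10% of all genes. Since this comparison and that of S222A induction share the 3 S222A uninduced libraries, they are not independent.

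PDIA6 had the largest of these differences, at 364, 173 and 346 CPM in WT uninduced and 495, 407 and 618 CPM in S222A uninduced libraries (log2 difference 0.78 ± 0.26 SE, adjusted p = 0.432). It was 1.52 between the deepest libraries and 0.50 among the others, and 0.49 without WT uninduced replicate 2. CRELD2 was at 19.2, 27.8 and 11.8 CPM in WT and 34.8, 34.5 and 32.9 CPM in S222A cells, with no overlap (0.77 ± 0.26, adjusted p = 0.467, and 0.49 without WT uninduced replicate 3). PDIA3 stood at 344, 244 and 324 CPM in WT and 376, 404 and 565 CPM in S222A cells, likewise with no overlap (0.56 ± 0.20, adjusted p = 0.492, and 0.36 without S222A uninduced replicate 3). The HSPA5 difference was 0.43 ± 0.19 with overlapping groups (adjusted p = 0.651), or 0.26 without WT uninduced replicate 3. With the depth term PDIA3 (0.56, adjusted p = 0.0322) and PDIA6 (0.84, adjusted p = 0.0338) were called higher, against 1.90% of all genes. Without the deepest libraries and S222A uninduced replicate 3, which leaves 1 S222A uninduced library, their differences were 0.27 and 0.19. The sensors ATF6 (-0.09), ERN1 (0.19), EIF2AK3 (-0.02) and the factor XBP1 (-0.03) had adjusted p-values from 0.980 to 0.999.

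**Figure D4:**
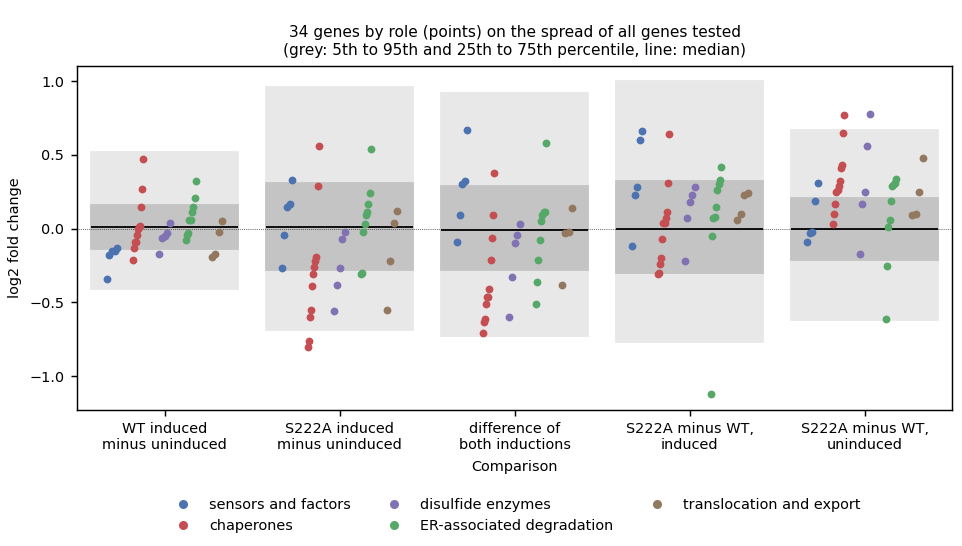
Log2 fold change of the 34 genes (points, coloured by role) in the 5 comparisons, drawn over the median, the 25th to 75th and the 5th to 95th percentile of the 11474 genes tested (grey). The chaperones lie below the median of all genes for S222A induction, apart from DNAJB9 and DNAJC3, and above it between the uninduced lines.

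The 6 genes with an ER stress element in the promoter can be set beside the other matched genes. On S222A induction all 6 had negative fold changes, from -0.80 to -0.19 with a median of -0.35. Of the 24 matched genes without the element 11 were negative, with a median of 0.04, and of all genes tested 49.2% were negative. Only the form with a gap of 9 bases was searched. HERPUD1, counted among the 24, has CCAAT and CCACG close together on opposite strands, at 117 to 113 and 111 to 107 bases before the start. Its fold change on S222A induction was 0.24. On WT induction 3 of the 6 were negative, with a median of -0.01. Between the uninduced lines 5 of the 6 were positive, with a median of 0.33, beside 20 of 24 and a median of 0.22 for the others. The split overlaps with the roles, since 5 of the 6 are chaperones and the other is the factor XBP1. It also divides the chaperones themselves. HYOU1, DNAJB11, SDF2L1 and MANF, which also stood lower on S222A induction, have no match to the element in the 250 bases read. DNAJB9 and DNAJC3, which stood higher, have none either. The part of role in this split was not tested.

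Other genes of these pathways were examined in 7 lists of 135 genes, of which 124 passed the filter. On S222A induction 4 of the 124 were called, where 4.45% of all genes were. The branch downstream of eIF2alpha held 2 of these. Of its 11 tested genes 1 rose and 1 fell, with a list median of 0.06. PPP1R15A (GADD34), the phosphatase subunit that reverses eIF2alpha phosphorylation, was at 29.8, 24.6 and 23.0 CPM without and 59.2, 64.9 and 65.1 CPM with S222A induction, 2.4-fold higher (log2 fold change 1.26 ± 0.19 SE, adjusted p = 0.00309). TRIB3, a pseudokinase induced by ATF4, was at 63.0, 54.2 and 47.1 CPM without and 21.8, 19.4 and 28.7 CPM with induction, a log2 fold change of -1.24 ± 0.21 (adjusted p = 0.00577). These 2 genes of the same branch thus moved in opposite directions, and both calls held under all 16 alternatives run. On WT induction PPP1R15A was at 24.7, 21.1 and 24.1 CPM without and 25.6, 14.6 and 22.4 CPM with doxycycline (-0.08, adjusted p = 1.00), and TRIB3 had a fold change of -0.35 (adjusted p = 1.00).

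The difference between the inductions was 1.34 ± 0.28 for PPP1R15A (adjusted p = 0.157) and -0.88 ± 0.30 for TRIB3 (adjusted p = 0.572), neither of them called. With the depth term both were, at 1.28 (adjusted p = 0.00963) and -0.87 (adjusted p = 0.0472), where 1.28% of all genes were called. Between the induced lines PPP1R15A was 2.88-fold higher in S222A (adjusted p = 6.28e-04) and TRIB3 lower by a log2 difference of -0.97 (adjusted p = 0.0174). The TRIB3 call was lost without WT induced replicate 1 (0.0575), S222A induced replicate 1 (0.0807) or S222A induced replicate 2 (0.0818), and with the replicate number as a block (0.0527). Before induction the lines differed by 0.19 for PPP1R15A (adjusted p = 0.953) and -0.09 for TRIB3 (adjusted p = 0.999).

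In the other 6 lists 2 genes were called on S222A induction. MAN1A1, a mannosidase that trims N-glycans, was at 8.05, 11.5 and 8.76 CPM without and 21.5, 29.2 and 19.4 CPM with induction (1.31 ± 0.26, adjusted p = 0.0130), the 1 call among 21 tested genes of the other chaperones and glycan quality control (median -0.12). Its call was lost without S222A uninduced replicate 1 (0.0810) or S222A induced replicate 2 (0.0639), and with the deepest libraries and S222A uninduced replicate 3 left out (0.0951). PRDX4, a peroxiredoxin of the ER, was at 60.1, 65.7 and 62.4 CPM without and 34.3, 35.01 and 38.3 CPM with induction (-0.80 ± 0.18, adjusted p = 0.0288), the 1 call among 13 other oxidoreductases (median -0.24). Its call was lost when any 1 of the 6 S222A libraries was left out, with adjusted p-values from 0.0562 to 0.120, with no filter on low counts (just above the threshold) and with the replicate block (0.0729), and held under the other 8 of 16 alternatives. None was called among 13 genes of ATF6 processing and related factors (median 0.02), 23 of other ER-associated degradation (0.11), 25 of other translocation, signal peptidase and oligosaccharyl transferase (-0.04), and 18 of COPII and KDEL receptors (0.01). In the comparisons of WT induction, the difference of inductions and the uninduced lines 0 of the 124 genes were called, where 0.00872%, 0.0784% and 0.392% of all genes were. Between the induced lines the 2 called were PPP1R15A and TRIB3, against 6.34% of all genes. On S222A induction the 7 list medians ran from -0.24 to 0.11, beside 0.01 over all genes.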

How the data were processed

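RNA of 12 OCI-AML2 libraries was sequenced with TruSeq libraries, 3 in each of 4 groups, per the labels' protocols. Raw counts, whole numbers by gene symbol and not normalized, were deposited by the authors in a single table. Per the submitters' processing notes reads were processed on hg19 with STAR 2.4 and HTSeq 0.6.1, and DESeq2 is named without a role. Not given in the sources used here are the annotation release and whether counting used strand, so reads of a gene and of an overlapping antisense gene cannot be told apart. Column names equal the descriptions of the samples and were matched on them.

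From the deposited counts, genes were kept by filterByExpr in edgeR 4.0.16 (R 4.3.3) at its default minimum count of 10, leaving 11474 of 55765 genes with 99.47% of the counts. All 12 libraries entered 1 model with a mean per group, TMM factors and robust quasi-likelihood tests (8 residual degrees of freedom), adjusted by Benjamini-Hochberg over all genes tested. The 5 comparisons were induction in each line, the difference of these (S222A minus WT), and the lines against each other with and without induction. SE was derived from the F statistic, as the size of the log2 fold change over the root of F, and intervals cover 95%. The procedure was tested on simulated data. A total of 875710 counts puts 3 counts at 3.36 CPM in the shallowest library, counting error only.

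The 34 genes, the 7 lists of companion genes and the markers were chosen with earlier results of these data known. Values in every library are given for genes called in any comparison and, whatever they did, for ATF6, ERN1, EIF2AK3, XBP1 and HSPA5, and companion genes are named when called on S222A induction. Other genes named were picked after their values were seen. Promoters are RefSeq's (GRCh38.p14) and exon lengths GENCODE 29's. The alternatives numbered 8, with DESeq2 1.42.0 and limma-voom (limma 3.58.1) among them, and 3 on depth that were added after seeing the data. Protein sequences were not used here, so features of protein sequence, part of the design, were not read.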

Additional observations from a re-analysis of the deposited data

How the results depend on the processing

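Counts of calls over all genes moved as follows. With upper quartile factors, limma-voom, only the groups compared, the deepest libraries left out, or these and S222A uninduced replicate 3 left out, 0 genes were called on WT induction, and 2 with no filter or DESeq2. The difference of inductions gave 22 calls with no filter, 31 with DESeq2 and 18 with the deepest libraries and S222A uninduced replicate 3 left out. With only the groups compared there were 482 calls between the induced and 9 between the uninduced lines, and 1458 between the induced lines with the deepest libraries and S222A uninduced replicate 3 left out. Between the uninduced lines no filter gave 91 and DESeq2 68. The depth term gave 6 calls on WT induction, 2052 on S222A induction, 147 for the difference, 2480 between the induced and 218 between the uninduced lines; the cause was not tested. With no filter the median log2 fold change of all genes shifted by 0.12 on S222A induction and by 0.11 for the difference and the induced lines.

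Of the 34 genes, S222A induction called 2 with no filter (CALR and SDF2L1), 1 with only the groups compared (SDF2L1), 3 with the deepest libraries left out and 7 with the depth term. Between the induced lines 0 were called with no filter, with only the groups compared or with the replicate block, and 4 with the depth term. Between the uninduced lines the depth term called 2. Same-numbered libraries of a line correlated at -0.30, -0.53 and 0.25 in WT and at -0.48, 0.12 and -0.43 in S222A. Of these 6, 1 matched its own number best. With 3 libraries per group that also differ in depth, these correlations cannot decide whether the sample numbers pair the libraries. With the replicate block there were 0 calls over all genes on WT induction, 235 on S222A induction, 0 for the difference, 350 between the induced and 22 between the uninduced lines.

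Leaving out 1 library at a time gave 0 to 0 genes on WT induction, 187 to 329 on S222A induction, 0 to 4 for the difference, 249 to 582 between the induced and 17 to 30 between the uninduced lines, and 0 to 1 of the 34 between the induced lines. Fold changes near 0 changed sign. On S222A induction these ran from -0.28 to 0.11 for ERN1, -0.14 to 0.09 for P4HB, -0.15 to 0.00 for ERO1L, -0.05 to 0.14 for SEL1L, -0.23 to 0.82 for SYVN1, -0.10 to 0.25 for EDEM2, -0.20 to 0.15 for DERL1, -0.04 to 0.24 for SEC61B and -0.03 to 0.11 for SSR1, and on WT induction from -0.22 to 0.13 for HSPA5. P4HB was at 0.00 with upper quartile factors or no filter and 0.04 with the deepest libraries left out, DERL1 at 0.00 with no filter and 0.02 with the replicate block, and ERN1 at 0.01 with that block. With the deepest libraries and S222A uninduced replicate 3 left out, EIF2AK3 was at -0.10, EDEM2 at -0.23, SEC61B at -0.05 and SSR1 at -0.00. That alternative leaves 1 S222A uninduced library, and the spread of that group is borrowed from the other groups. The other settings kept the direction and the side of the threshold in 484 results, while 10 changed sign, 15 gained a call and 7 lost one. The settings with 1 library left out kept both in 292, while 23 changed sign, 0 gained a call and 15 lost one. Results that were not called and stayed so count among those kept. Genes with few reads, SYVN1, DNAJB9 and DERL3 among them, are limited by depth.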
